A study of Mus musculus with 43 samples.

Results

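The 37 genes described here are targets of interferon and genes of antigen presentation, followed in the livers of mice that carry the human Z form of alpha-1-antitrypsin with or without hepatic insulin signalling. They were taken by gene symbol, with no measured value in the rule, but the list was chosen with earlier results of these data known. All 37 were found among the 14622 genes of the hemizygous and the 13741 genes of the homozygous table. Of these genes, 31 belong to the type I interferon response and 6 to class I antigen presentation (Tap1, Tap2, Tapbp, B2m, H2-K1 and H2-D1). All 37 passed the filter on low values in both tables. The human transgene PiZ encodes a protein that folds poorly and is retained in hepatocytes. LIRKO stands for loss of the insulin receptor in liver, and F1KO for loss of FOXO1, whose activity insulin lowers.

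The hemizygous table held 5 mice labelled PiZ x LIRKO x F1KO (Z), 4 labelled PiZ x LIRKO (Z), 5 labelled PiZ (Z*) and written Zstar here, 5 labelled PiZ (Z), 4 LIRKO mice and 3 WT mice. The homozygous table held 7 mice labelled PiZ x LIRKO (ZZ), 3 labelled PiZ (ZZ), 4 LIRKO mice and 3 WT mice. These groups are called Z LIRKO F1KO, Z LIRKO, Zstar, Z, ZZ LIRKO and ZZ below. The 7 LIRKO and WT mice of the second table were those of the first, sequenced again, so the tables share their control animals and the repeat is no independent test. All mice were males of 4 to 5 months on a C57BL6/J x FVBN background. The labels give the whole liver as tissue, and name neither the promoter of the transgene, nor the driver of the knockouts, nor what the asterisk marks. The source name of the samples, called the cohort label here, was F1IRZZ for Zstar and Z LIRKO F1KO and IRZZ for the other hemizygous groups. Between those 2 sets genotype and cohort label cannot be told apart. All homozygous-table libraries carried IRZZ#2, also those of the 7 mice labelled IRZZ in the first table. The label therefore does not mark a set of animals alone, and reading it as a cohort was not tested.

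Type I interferons act through a receptor that activates STAT2, which joins IRF9 in a complex that binds interferon-stimulated response elements in the promoters of target genes. The targets include cytosolic RNA sensors, enzymes that make the messenger 2-5A to activate RNase L, IFIT proteins that bind viral RNA, the ubiquitin-like ISG15, and guanylate-binding proteins. Class I molecules present peptides to CD8 T cells: the transporter TAP1 and TAP2 moves peptides into the endoplasmic reticulum, tapasin (Tapbp) helps load them, and beta-2-microglobulin (B2m) is the light chain of the heavy chains H2-K1 and H2-D1. In liver, hepatocytes, Kupffer cells and endothelium all respond to interferon, so bulk liver RNA mixes several sources.

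Promoters are shown for 5 members on which the results turn: Oas1a, which had the largest change in ZZ livers, Bst2 and B2m, which were lower without the insulin receptor, and Stat2 and Tap1, whose LIRKO change differed between ZZ and non-PiZ livers. Each line gives the 250 bases before the RefSeq transcript start (GRCm38.p6), written 5′ to 3′ on the strand of the gene. Capitals mark 2 motif cores, searched on both strands: GAAA and GAAA separated by 2 bases (the core of the interferon-stimulated response element) and TTC and GAA separated by 3 bases (the core of the gamma-activated site), which can overlap.
Oas1a (chr5:120907526-120907775, minus strand): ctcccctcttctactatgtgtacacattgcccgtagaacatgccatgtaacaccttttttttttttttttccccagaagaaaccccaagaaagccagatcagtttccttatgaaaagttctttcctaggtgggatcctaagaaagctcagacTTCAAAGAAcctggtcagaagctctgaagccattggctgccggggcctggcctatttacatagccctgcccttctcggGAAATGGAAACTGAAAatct
Bst2 (chr8:71537473-71537722, minus strand): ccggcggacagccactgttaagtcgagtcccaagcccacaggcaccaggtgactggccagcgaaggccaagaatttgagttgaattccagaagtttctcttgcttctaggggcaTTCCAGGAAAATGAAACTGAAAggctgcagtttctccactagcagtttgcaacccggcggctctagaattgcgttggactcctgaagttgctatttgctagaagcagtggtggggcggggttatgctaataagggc
Stat2 (chr10:128270248-128270497, plus strand): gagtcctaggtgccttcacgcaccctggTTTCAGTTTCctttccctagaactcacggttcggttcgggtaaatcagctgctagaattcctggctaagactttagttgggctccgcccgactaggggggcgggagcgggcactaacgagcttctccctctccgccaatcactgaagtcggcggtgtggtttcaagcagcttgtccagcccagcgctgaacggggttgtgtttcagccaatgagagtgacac
B2m (chr2:122147437-122147686, plus strand): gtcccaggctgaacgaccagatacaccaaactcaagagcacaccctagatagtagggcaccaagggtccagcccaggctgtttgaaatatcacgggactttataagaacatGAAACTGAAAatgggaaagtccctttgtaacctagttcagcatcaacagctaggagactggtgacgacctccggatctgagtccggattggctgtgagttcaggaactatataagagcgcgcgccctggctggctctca
Tap1 (chr17:34187306-34187555, plus strand): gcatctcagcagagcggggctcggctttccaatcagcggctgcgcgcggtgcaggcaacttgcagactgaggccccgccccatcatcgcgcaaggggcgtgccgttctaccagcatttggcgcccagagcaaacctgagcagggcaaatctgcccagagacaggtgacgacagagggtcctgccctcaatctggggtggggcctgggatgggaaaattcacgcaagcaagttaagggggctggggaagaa

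The response element core stood in 35.3% of the 34 promoters of the 29 members with an entry, against 2.98% of all 32851 promoters of the table at the same length. It was present for 12 members: B2m, Bst2, Cxcl10, Gbp2, Gbp3, Gbp7, Ifit1, Ifit3, Isg15, Oas1a, Rsad2 and Stat2. Oas1a and Bst2 each held 2 overlapping copies, Stat2 and B2m held 1 each, and this window of Tap1 held neither core. The gamma-activated site core stood in 17.6% of the member promoters, against 7.02% of all promoters. Of the 9 higher members with a promoter entry in ZZ against WT, 2 held the response element core, and so did 5 of 16 in ZZ LIRKO against LIRKO. Among the lower members with an entry, it was held by 2 of 4 in LIRKO against WT of the hemizygous table and by 2 of 5 in ZZ LIRKO against ZZ.

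The members cluster in the genome (GRCm38, GENCODE M21 annotation). Ifit1, Ifit2 and Ifit3 are neighbours on chromosome 19 and Gbp2, Gbp3 and Gbp7 on chromosome 3. Oas1a, Oas2, Oasl1, Oasl2 and Cxcl10 lie on chromosome 5. The class I genes other than B2m lie between positions 33915899 (Tapbp) and 35267499 (H2-D1) of chromosome 17, in the H2 region. Near-identical family members, above all the H2 heavy chains, could exchange reads, and the counting rule is not given in the sources used here.

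Libraries held 13.8 to 23.9 M counted reads (M, 1000000) in the hemizygous table and 38.2 to 90.1 M in the homozygous table. The fewest reads behind any member value were 17 for Cxcl10 in Zstar mouse 182 and, in the homozygous table, 77 for Oas1a in WT mouse 1586. Levels are log2 CPM (counts per 1000000 reads after scaling by the authors, on a log2 scale), and a difference of 1 log2 unit is a doubling. A gene is called higher or lower at an adjusted p under 0.05 in limma over all genes tested. Insr ranged from 5.08 to 6.10 log2 CPM in the 3 hemizygous LIRKO groups, against 6.57 to 7.26 in the other 3. Foxo1 stood at 2.61 to 2.98 in Z LIRKO F1KO and at 5.00 to 6.39 in the other hemizygous groups. Prss2, a gene of pancreatic acinar cells, exceeded 0 log2 CPM in 8 of 26 hemizygous and 3 of 17 homozygous libraries, among them WT mice 1586 and 1601 in both tables.

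**Figure D1:**
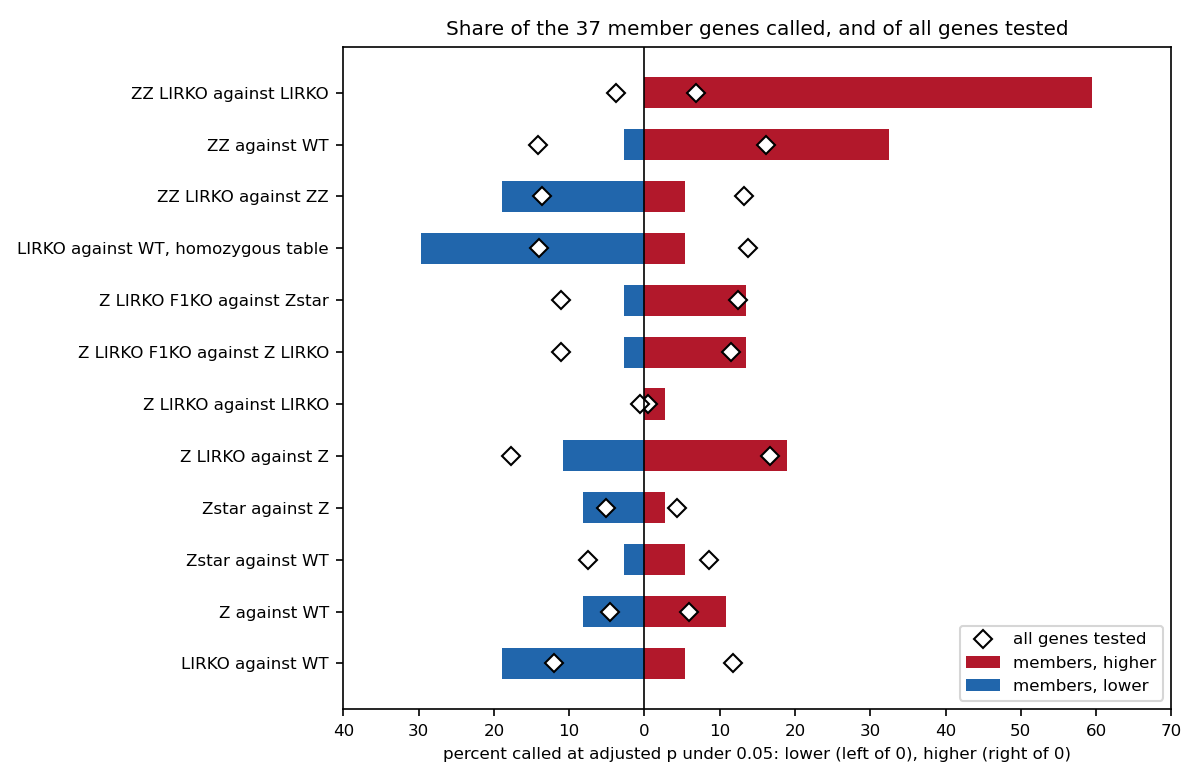
Share of the 37 member genes called higher (red, right of 0) or lower (blue, left of 0) at an adjusted p under 0.05, in percent, for 12 comparisons, with the share of all genes tested as open diamonds. The red bar is longest for ZZ LIRKO against LIRKO at 59.5% and the blue bar for LIRKO against WT at 29.7% (homozygous table).

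Homozygosity for the transgene went with higher levels of interferon targets. In ZZ against WT livers, 12 of 37 members were higher and 1 was lower, that is 32.4% and 2.70%, against 16.1% higher and 14.2% lower among all genes tested. The median change was 0.40 log2 units over the 37 members and -0.04 over all genes. The members of the 2-5A synthetase family, Oas1a, Oas2, Oasl1 and Oasl2, were all higher, as were Ifit2, the transcription factor Irf7, the ISG15 protease Usp18, the effectors Bst2, Ifi27, Xaf1 and Samd9l, and Tapbp. Stat2 was lower.

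Oas1a, a 2-5A synthetase, had 2.77, 2.99 and 3.22 log2 CPM in the ZZ livers and 1.26, 0.82 and 1.60 in the WT livers. Every ZZ value lay above every WT value, and the difference was 1.77 ± 0.21 log2 units (SE, adjusted p = 1.75e-05), or 3.40-fold. Usp18, which removes ISG15 from proteins and damps receptor signalling, stood at 4.77, 4.51 and 4.43 in ZZ and 2.40, 2.80 and 4.28 in WT. The WT mice were spread over almost the whole distance to the ZZ mice, with mouse 1601 highest. Ifit2, an RNA-binding antiviral protein, stood at 2.85, 2.97 and 2.74 in ZZ and 1.46, 1.67 and 2.16 in WT. Its groups did not overlap, and it differed by 1.09 ± 0.21 log2 units (SE, adjusted p = 0.00113). Irf7, which amplifies interferon production, stood at 5.50, 5.65 and 5.94 in ZZ and 4.35, 3.89 and 5.44 in WT, without overlap, a difference of 1.14 ± 0.33 log2 units (SE, adjusted p = 0.0169).

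Oasl2 (1.51, adjusted p = 4.55e-04), Oas2 (1.13, adjusted p = 3.34e-04) and Samd9l, an inhibitor of translation (1.03, adjusted p = 0.00197), were higher too. Usp18 differed by 1.41 (adjusted p = 0.00673) and Oasl1, which lacks synthetase activity, by 1.12 (adjusted p = 0.0215). The smaller changes, from 0.54 to 0.92, were those of Tapbp, the virus tether Bst2, the mitochondrial protein gene Ifi27 and Xaf1, a pro-apoptotic factor. Stat2 was lower, with 6.05, 6.15 and 6.03 in ZZ and 6.52, 6.66 and 6.55 in WT (-0.50, adjusted p = 0.0102). Isg15 averaged 3.98 ± 0.48 in ZZ and 3.5 ± 0.66 in WT (SD, n = 3 each), and Cxcl10, a chemokine for T cells, 2.66 ± 0.31 in ZZ and 1.53 ± 0.19 in WT, and neither passed the test at differences of 0.48 (adjusted p = 0.385) for Isg15 and 1.12 (adjusted p = 0.167) for Cxcl10. Oas1a, Oas2, Oasl2, Ifit2 and Samd9l passed under every alternative, Oas1a with a range of 1.42 to 1.95. Without ZZ mouse 1809, WT mouse 1564 or WT mouse 1586 the count of called members was 8, 8 and 7, and without the libraries with Prss2 it was 8.

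The wider pathway was followed with other lists. Of 45 other type I targets measured, 17 were higher and 4 lower in ZZ than in WT, with a median of 0.33 log2 units, led by Slfn2 (1.69, adjusted p = 4.12e-05), Apobec3 (1.28, adjusted p = 9.55e-05) and Slfn8 (1.4, adjusted p = 1.24e-04). Of 17 interferon-gamma targets 3 were higher and 3 lower. All 8 class II presentation genes were higher, with a median of 1.28, among them Ctss, a lysosomal protease, at 1.81 (adjusted p = 3.24e-06), and H2-Aa at 1.55 (adjusted p = 3.39e-04). The receptor genes Ifngr1 (0.82, adjusted p = 5.25e-05) and Ifnlr1 (3.02, adjusted p = 1.74e-04) were higher as well. Cell type markers moved with them: the summed level of 5 dendritic cell markers was 15.0 to 19.2 CPM in ZZ and 3.06 to 4.90 in WT. That of 4 monocyte and neutrophil markers was 13.9 to 20.4 CPM in ZZ and 2.53 to 2.92 in WT, and that of 9 Kupffer cell and macrophage markers 340.3 to 464 CPM in ZZ and 302 to 389.8 in WT. Of 4 B cell markers 3 were higher, with a sum of 6.36 to 7.61 CPM in ZZ and 1.96 to 4.29 in WT, and of 4 hepatocyte markers 2 were lower, with a median change of -0.76. Of 3 sinusoidal endothelial markers 1 was lower. Ptprc, the pan-leukocyte gene CD45, was higher by 0.89 (adjusted p = 0.00191), while 6 T and NK cell markers summed to 2.65 to 4.10 CPM in ZZ and 3.0 to 5.28 in WT. Clec4f, a Kupffer cell receptor, changed by -0.13 (adjusted p = 0.573) and the T cell gene Cd3e by -0.20 (adjusted p = 0.762). None of these markers was at 0 reads in a ZZ or WT library of this table, and the part of these cells in the result was not tested. In bulk tissue a change in the number of cells of a type and a change in RNA per cell cannot be told apart.

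In livers without the insulin receptor, the homozygous transgene went with higher levels of most members. In ZZ LIRKO against LIRKO livers, 22 of 37 members were higher and 0 lower (59.5%), against 6.83% higher and 3.73% lower among all genes. The median change was 0.74 log2 units for the 37 members, 0.76 for the type I genes and 0.36 for the class I genes, against -0.01 over all genes. Of the type I genes 18 of 31 were higher, and of the class I genes 4 of 6. All 4 genes of the 2-5A synthetase family, 2 of 3 IFIT genes and 3 of 5 sensors were among them.

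Oasl2 had a lowest value of 2.99, a median of 3.46 and a highest value of 4.12 log2 CPM in the 7 ZZ LIRKO livers, against 1.65, 1.93, 2.06 and 2.51 in the 4 LIRKO livers. All ZZ LIRKO mice were above all LIRKO mice, and the means differed by 1.48 ± 0.20 log2 units (SE, adjusted p = 3.31e-04). Ifi44, an interferon-induced effector, had a lowest value of 2.11, a median of 2.57 and a highest value of 3.05 in ZZ LIRKO and 1.16, 0.36, 1.07 and 2.06 in LIRKO. LIRKO mouse 1600 was close to the lowest ZZ LIRKO mouse, without overlap, and the difference was 1.46 ± 0.27 log2 units (SE, adjusted p = 0.00302). Ifit1, an IFIT protein that binds RNA lacking a methylated cap, had a lowest value of 2.68, a median of 2.80 and a highest value of 3.69 in ZZ LIRKO and 1.68, 1.44, 1.60 and 2.94 in LIRKO. Its groups overlapped at mouse 1600, and its call (1.09, adjusted p = 0.0434) was lost in 9 of 18 alternatives. Irf7 had a lowest value of 4.67, a median of 5.60 and a highest value of 5.75 in ZZ LIRKO and 4.05, 4.19, 4.44 and 4.57 in LIRKO, a difference of 1.06 ± 0.26 log2 units (SE, adjusted p = 0.0149).

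Oas1a (1.37, adjusted p = 8.68e-05), Oasl1 (1.26, adjusted p = 0.00675) and Oas2 (1.13, adjusted p = 2.11e-04) followed. Zbp1, a sensor of Z-form nucleic acid, Rsad2, which makes a chain-terminating nucleotide, Gbp3, the sensor Dhx58, Xaf1 and Ifit2 were higher by 0.83 to 1.03. Samd9l, Ifi27, Parp14, the RNA sensor Ifih1 and Stat2 were higher by 0.35 to 0.75. Isg15 (0.83, adjusted p = 0.0965), Irf9 (0.29, adjusted p = 0.0754) and Cxcl10 (1.25, adjusted p = 0.0931) did not pass. Cxcl10 had a lowest value of 1.10, a median of 2.85 and a highest value of 4.12 in ZZ LIRKO and 1.18, 1.39, 1.41 and 1.45 in LIRKO, with mice 1876 and 1877 at the low end. Of the calls, those of Oas1a, Oas2, Oasl1, Oasl2, Ifi44, Ifit2, Gbp3, Parp14, Tap1 and H2-D1 held under every alternative. The count was 10, 13 and 13 without LIRKO mouse 1468, 1474 or 1483, and 14 without ZZ LIRKO mouse 1783.

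Outside the 37, 22 of 45 other type I targets, 8 of 17 interferon-gamma targets, 6 of 22 other class I processing genes and 7 of 8 class II genes were higher in ZZ LIRKO than in LIRKO, and none of them was lower. The medians of these lists were 0.42, 0.49, 0.23 and 0.78, in that order. Ly6e (1.29, adjusted p = 4.71e-05), Oas3 (1.4, adjusted p = 4.19e-04) and Slfn8 (1.13, adjusted p = 4.55e-04) led the type I targets. Gvin1 (1.80, adjusted p = 5.09e-04), Cxcl11 (1.33, adjusted p = 0.00238) and Tgtp1 (1.34, adjusted p = 0.00604) led the interferon-gamma targets. None of the 16 measured genes for interferons, their receptors and signalling passed. The dendritic cell marker sum was 7.30 to 18 CPM in ZZ LIRKO and 3.63 to 4.32 in LIRKO, and the monocyte and neutrophil sum 7.96 to 21.4 CPM in ZZ LIRKO and 1.97 to 5.33 in LIRKO. The Kupffer cell and macrophage sum was 468 to 707 CPM in ZZ LIRKO and 429.9 to 563 in LIRKO, and the T and NK sum 4.41 to 8.89 CPM in ZZ LIRKO and 2.67 to 3.49 in LIRKO. Clec4f changed by 0.04 (adjusted p = 0.862), Cd3e by 0.82 (adjusted p = 0.127) and Ptprc by 0.60 (adjusted p = 0.0143). Their part in the result was not tested.

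**Figure D2:**
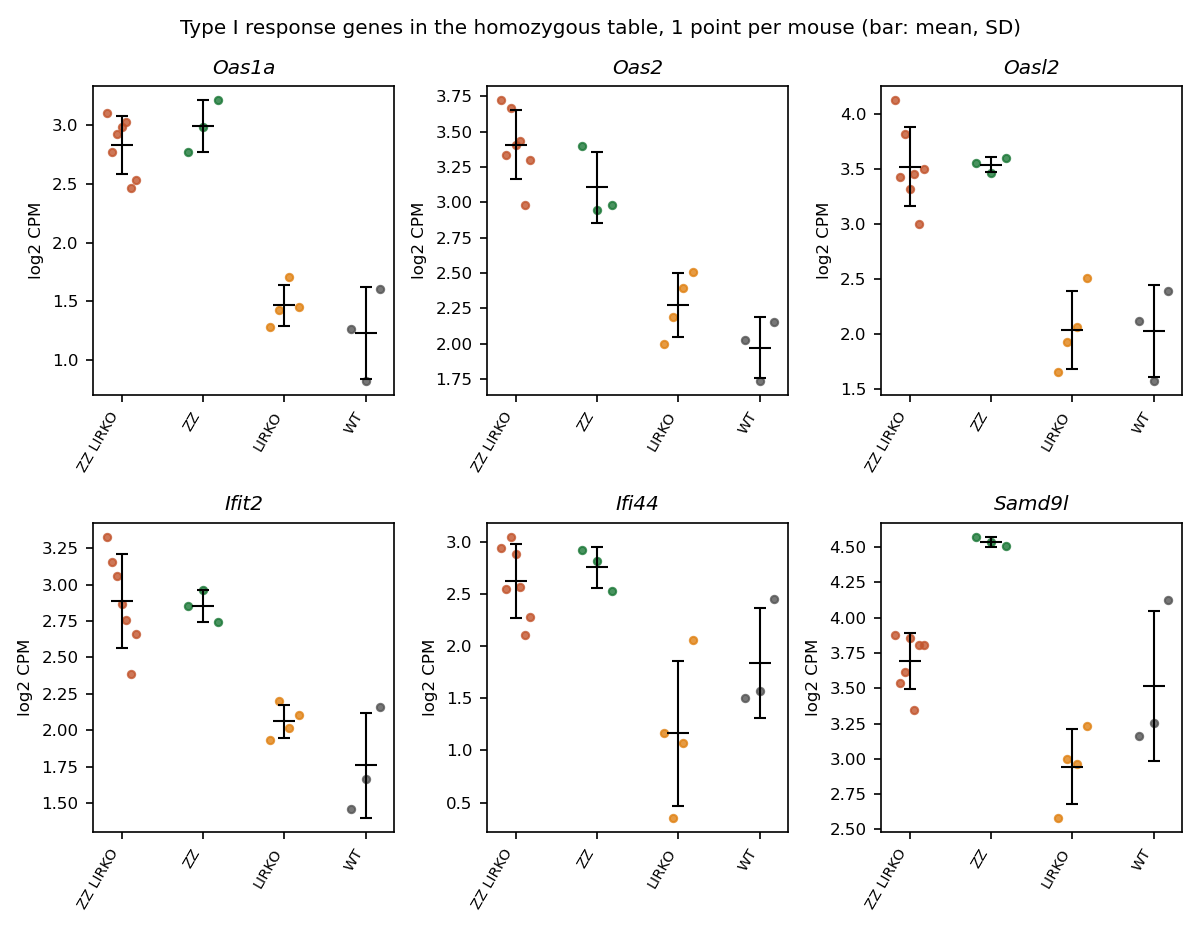
Level in log2 CPM of 6 type I response genes in each mouse of the homozygous table (points), with group mean and SD (bars), for ZZ LIRKO (n = 7), ZZ (n = 3), LIRKO (n = 4) and WT (n = 3). For Oas1a and Oas2 the ZZ LIRKO and ZZ mice lie above all LIRKO and WT mice, and for Samd9l the 3 ZZ mice lie above every other mouse.

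**Figure D3:**
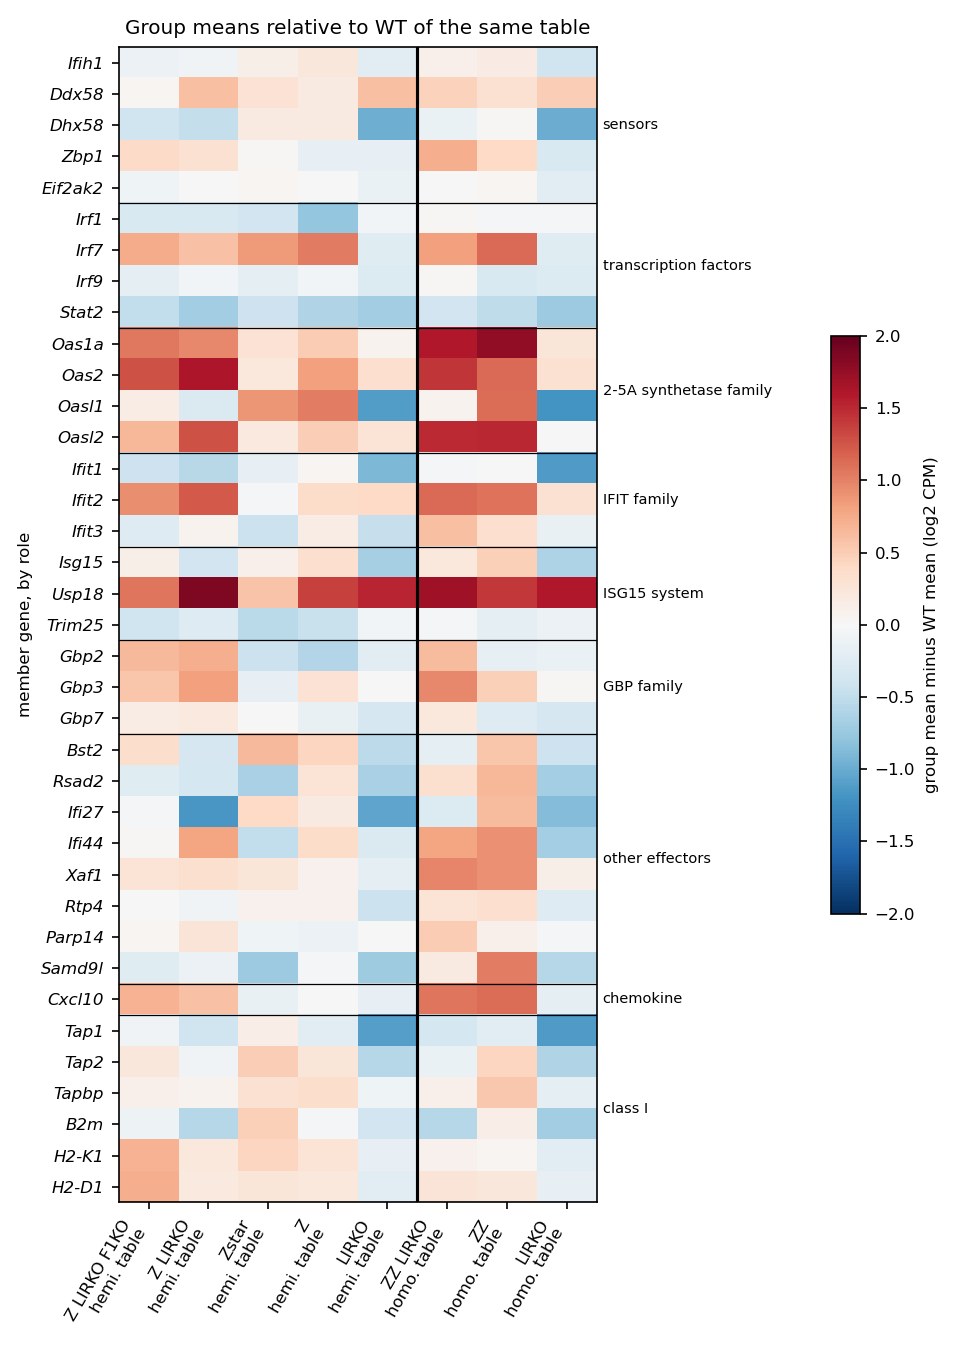
Group mean minus WT mean of the same table, in log2 CPM, for the 37 members ordered by role (rows) and 8 groups (columns, hemizygous table left of the black line). Differences run from -1.19 (Oasl1 in LIRKO, homozygous table) to 1.87 (Usp18 in Z LIRKO), and Oas1a stands at 1.77 in the ZZ column.

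The hemizygous transgene was followed in Z and Zstar livers. In Z against WT 4 members were higher and 3 lower (10.8% and 8.11% of 37), against 5.89% and 4.54% of all genes. All 7 were type I response genes. The median change was 0.19 for the members and -0.01 for all genes. Irf7 had 5.69, 6.07, 5.93, 5.83 and 6.08 log2 CPM in Z and 4.55, 4.44 and 5.65 in WT. The Z mice were close together and above all WT mice, of which 1601 was nearest (1.04 ± 0.25, SE, adjusted p = 0.00805). Irf1, a transcription factor induced by interferon-gamma, had 4.51, 4.47, 4.09, 3.79 and 4.59 in Z and 5.16, 5.00 and 5.03 in WT. All Z mice were below all WT mice (-0.77 ± 0.17, SE, adjusted p = 0.00456). Neither gene overlapped between the groups. Usp18 had 4.43, 4.54, 5.07, 4.39 and 5.16 in Z and 2.91, 2.79 and 4.34 in WT, with mouse 1601 again the highest WT mouse (1.37 ± 0.41, SE, adjusted p = 0.0319). Oasl1 had 4.31, 5.16, 4.20, 4.47 and 4.34 in Z and 3.48, 2.56 and 4.36 in WT, where WT mouse 1601 reached the Z mice (1.03 ± 0.31, SE, adjusted p = 0.0333). Trim25, a ubiquitin ligase that acts on RIG-I, had 6.52, 6.48, 6.45, 6.58 and 6.44 in Z and 6.73, 7.03 and 7.08 in WT (-0.45 ± 0.11, SE, adjusted p = 0.00788). Every Z value of Trim25 was below every WT value. Oas2 was higher (0.82, adjusted p = 0.0203) and Stat2 lower (-0.60, adjusted p = 0.0225). Oas1a averaged 1.0 ± 0.32 in Z (SD, n = 5) and 0.50 ± 0.04 in WT (SD, n = 3) and did not pass.

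Clock genes differed between some of these mice as well. The clock value, which is the mean log2 CPM of Dbp, Tef, Per3, Nr1d2 and Hlf minus that of Arntl, Npas2, Clock, Cry1 and Nfil3, was 0.03 to 3.59 in Z and -0.73 to 1.48 in WT. Its median was 3.21 in Z and 0.13 in WT, so it partly went with the group. With it as a covariate 0 members passed in limma, whereas without it 7 passed and 10 had an unadjusted p under 0.05. With the covariate the 7 kept their direction, at 0.97 for Oas2, 0.94 for Oasl1, 0.93 for Usp18 and 0.77 for Irf7. Irf1 stood at -0.56, Trim25 at -0.44 and Stat2 at -0.33. The part of the clock in these changes was not tested. Without WT mouse 1564 or WT mouse 1586, 2 members passed, both lower, and without the libraries with Prss2 3 did. In ZZ against WT the clock values overlapped, at -1.15 to 1.70 in ZZ and -0.97 to 1.60 in WT.

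In Zstar against WT 2 members were higher and 1 lower (5.41% and 2.70%), against 8.58% and 7.47% of all genes. The median change was 0.11 for the members and -0.02 for all genes. Bst2 had 7.62, 7.38, 8.10, 7.85 and 7.97 log2 CPM in Zstar and 7.11, 7.09 and 7.21 in WT, without overlap (0.65 ± 0.15, SE, adjusted p = 0.00376). Irf7 had 5.45, 5.41, 6.43, 5.38 and 6.0 in Zstar and 4.55, 4.44 and 5.65 in WT, with overlap at WT mouse 1601 (0.86 ± 0.25, SE, adjusted p = 0.021). Trim25 had 6.21, 6.45, 6.32, 6.32 and 6.72 in Zstar and 6.73, 7.03 and 7.08 in WT, where all Zstar mice were lower (-0.54 ± 0.11, SE, adjusted p = 0.0014). In a fit of these 2 groups alone 1 member was higher and 2 lower. A fit with the clock covariate called 1 member, and so did a fit lacking the libraries with Prss2. Without WT mouse 1601 or Zstar mouse 120 the count was 5 and 6. Zstar against Z gave 1 member higher, B2m (0.50, adjusted p = 0.0421), and 3 lower (2.70% and 8.11%), against 4.37% and 5.1% of all genes. B2m had 11.13, 11.50, 11.74, 10.73 and 11.16 in Zstar and 10.73, 10.71, 10.77, 10.71 and 10.83 in Z, with overlap. Rsad2 had 2.55, 2.93, 3.51, 2.63 and 3.68 in Zstar and 4.30, 4.24, 3.95, 3.57 and 3.86 in Z (-0.93 ± 0.24, SE, adjusted p = 0.0175). The highest Zstar value of Rsad2 lay within the Z range. Oas2 had 2.55, 2.17, 2.62, 1.97 and 2.09 in Zstar and 3.37, 2.72, 2.84, 2.30 and 3.24 in Z (-0.61 ± 0.20, SE, adjusted p = 0.0489), again with overlap, and Samd9l differed by -0.69 (adjusted p = 0.0444). B2m and Oas2 lost the call in 12 of 17 alternatives each, and the count was 1 without Z mouse 1410, 1442 or 1445 or Zstar mouse 120 or 182, and 2 without Zstar mouse 251. Ptprc differed by -0.73 (adjusted p = 0.0151) in Zstar against Z and by -0.63 (adjusted p = 0.0488) in Zstar against WT, and its part was not tested.

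Adding the hemizygous transgene to LIRKO moved 1 member. In Z LIRKO against LIRKO Oas2 was higher and 0 members were lower, which is 2.70% higher, against 0.485% higher and 0.61% lower among all genes. Oas2 had 3.92, 3.58, 3.31 and 3.95 log2 CPM in Z LIRKO and 2.39, 2.25, 2.07 and 2.89 in LIRKO. The groups did not overlap, and the difference of 1.29 ± 0.22 log2 units (SE, adjusted p = 0.00405) passed under every alternative. The median over the members was 0.40, against -0.01 over all genes, and 15 members had an unadjusted p under 0.05. In a fit of these 2 groups alone, and also without the libraries with Prss2, 7 members passed, all higher. The share of all genes called in these 2 settings was not computed, so the count cannot be set against it. The next members were Oasl2 (0.99, adjusted p = 0.0698), Ifi44 (1.07, adjusted p = 0.0928), Gbp2 (0.95, adjusted p = 0.0851) and Irf7 (0.83, adjusted p = 0.0896). Clec4f was higher by 0.48 (adjusted p = 0.0396), and Kupffer cell and macrophage markers summed to 862 to 1000.0 CPM in Z LIRKO and 568 to 727 in LIRKO, whose part was not tested. Outside the members, Oas3, a further 2-5A synthetase, was higher by 1.73 (adjusted p = 5.95e-04).

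Loss of the insulin receptor without PiZ went with more lower than higher members. In LIRKO against WT of the hemizygous table, 2 members were higher and 7 lower (5.41% and 18.9%), against 11.8% and 12.0% of all genes. When the same mice were sequenced again for the homozygous table, 2 were higher and 11 lower (5.41% and 29.7%), against 13.8% and 14.0%. The median change was -0.22 and -0.24 log2 units in the 2 tables, against 0.01 and 0.00 over all genes. Lower in both were Oasl1, Stat2, Bst2, Ifi27, Dhx58, Tap1 and Tap2, and higher in both were Usp18 and the RNA sensor gene Ddx58 (RIG-I). Of these calls, that of Bst2 in the homozygous table was lost in 11 of 15 alternatives, and those of Dhx58 and Tap2 in the hemizygous table in 7 of 15 each. Without the libraries with Prss2, of which 2 are WT, only WT mouse 1564 was left to compare with in either table. Of the calls lost there in the hemizygous table, Oasl1 stood at -1.12, Stat2 at -0.65 and Bst2 at -0.49, close to their values with all libraries. Dhx58 at -0.54 and Tap2 at -0.33 changed less than with all libraries. Without WT mouse 1601 the numbers were 2 higher and 3 lower in the hemizygous and 2 higher and 4 lower in the homozygous table. These comparisons share their WT mice with Z, Zstar and ZZ against WT.

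Ifi27 had 5.16, 5.00, 5.31 and 5.61 log2 CPM in LIRKO and 6.46, 6.04 and 6.46 in WT of the hemizygous table. Every LIRKO value was below every WT value (-1.05 ± 0.20, SE, adjusted p = 4.43e-04, or 2.07-fold lower). Oasl1 had 2.10, 2.08, 2.44 and 2.80 in LIRKO and 3.48, 2.56 and 4.36 in WT. The groups overlapped, since LIRKO mouse 1600 was above WT mouse 1586 (-1.11 ± 0.32, SE, adjusted p = 0.0148). Dhx58, a regulator of RIG-I-like sensors, had 2.18, 2.10, 2.25 and 3.61 in LIRKO and 3.08, 3.14 and 4.33 in WT, and again mouse 1600 stood apart from the other LIRKO mice (-0.98 ± 0.34, SE, adjusted p = 0.0376). Usp18 went the other way, with 4.93, 4.64, 4.84 and 5.08 in LIRKO and 2.91, 2.79 and 4.34 in WT, without overlap (1.53 ± 0.43, SE, adjusted p = 0.0113). Stat2 had 5.36, 5.79, 5.80 and 5.93 in LIRKO and 6.37, 6.5 and 6.35 in WT, also without overlap (-0.69 ± 0.18, SE, adjusted p = 0.00629).

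Bst2 fell by 0.52 (adjusted p = 0.0154), and Ddx58 had 5.58, 5.44, 5.52 and 5.73 in LIRKO and 4.78, 4.74 and 5.36 in WT (0.60 ± 0.18, SE, adjusted p = 0.017). In the homozygous table Oasl1 had 1.89, 1.83, 2.08 and 2.90 in LIRKO and 3.52, 2.42 and 4.16 in WT, Dhx58 2.32, 2.20, 2.32 and 3.19 in LIRKO and 3.16, 3.0 and 4.34 in WT, and Usp18 4.90, 4.47, 4.60 and 5.08 in LIRKO and 2.40, 2.80 and 4.28 in WT. These are the same animals, and the changes were -1.19 (adjusted p = 0.0126) for Oasl1, -0.99 (adjusted p = 0.0151) for Dhx58 and 1.60 (adjusted p = 0.0021) for Usp18. Ifit1 had 1.68, 1.44, 1.60 and 2.94 in LIRKO and 2.42, 2.56 and 4.16 in WT, where mouse 1600 lay above 2 of the WT mice. Ifit1 (-1.13, adjusted p = 0.0457), Samd9l (-0.57, adjusted p = 0.0443) and Ifih1 (-0.39, adjusted p = 0.0471) also passed as lower in that table, each lost in at least 9 of 15 alternatives. Isg15 averaged 2.75 ± 0.44 in LIRKO (SD, n = 4) and 3.42 ± 0.52 in WT (SD, n = 3) in the hemizygous table and did not pass in either. Ifi27 and Tap1 passed in both tables under every alternative. Without WT mouse 1601 the calls of Oasl1 (-0.66) and Dhx58 (-0.57) were lost and the count fell to 5 in the hemizygous table, against 6 in the homozygous table. The clock value was 2.04 to 4.01 in LIRKO and -0.73 to 1.48 in WT, and with it as a covariate 4 members were called lower and 0 higher in the hemizygous table, while Usp18 stood at 0.92 and Stat2 at -0.32. Among other genes of the hemizygous table, 2 of 45 type I targets were higher and 9 lower, led by Tor3a (-1.29, adjusted p = 1.26e-04) and Parp9 (-0.69, adjusted p = 4.65e-04), and 5 of 16 interferon-gamma targets were lower, led by Cxcl11 (-2.33, adjusted p = 1.24e-04). Kupffer cell and macrophage markers summed to 568 to 727 CPM in LIRKO and 431 to 540.1 in WT, and Clec4f was higher by 0.35 (adjusted p = 0.0453). In the hemizygous table, 4 of 9 of these markers and 1 of 4 B cell markers were higher and 2 of 4 hepatocyte and 2 of 6 pancreas markers lower. In the homozygous table, 7 of 9 and 3 of 4 were higher, and 2 of 4 hepatocyte and 4 of 6 pancreas markers lower. The part of these cells was not tested.

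On the PiZ background the insulin receptor comparison called members in both directions, as it did among all genes. In Z LIRKO against Z 7 were higher and 4 lower (18.9% and 10.8%), against 16.7% and 17.7% of all genes, with a median of -0.02 for the members and 0.02 for all genes. In a fit of these 2 groups alone 4 members were higher and 9 lower. Without Z mouse 1443 3 were higher and 5 lower, without Z LIRKO mouse 1450 3 and 4, and without Z mouse 1442 or Z LIRKO mouse 1412 4 and 4, so the balance of directions depended on these settings. Gbp2, a guanylate-binding protein, had 3.17, 2.99, 2.94 and 3.26 log2 CPM in Z LIRKO and 2.25, 2.09, 1.77, 1.21 and 1.53 in Z. The groups did not overlap (1.32 ± 0.26, SE, adjusted p = 4.72e-04, or 2.50-fold). Ifit2 had 3.22, 3.01, 2.68 and 3.58 in Z LIRKO and 2.31, 2.26, 2.30, 2.04 and 2.42 in Z, without overlap (0.86 ± 0.24, SE, adjusted p = 0.00854). Oas2 had 3.92, 3.58, 3.31 and 3.95 in Z LIRKO and 3.37, 2.72, 2.84, 2.30 and 3.24 in Z, where the lowest Z LIRKO mouse was just below the highest Z mouse (0.80 ± 0.21, SE, adjusted p = 0.00489). Irf1 had 4.98, 4.44, 4.47 and 5.13 in Z LIRKO and 4.51, 4.47, 4.09, 3.79 and 4.59 in Z, with overlap (0.46 ± 0.16, SE, adjusted p = 0.0257).

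Ifi27 was the largest decrease, with 5.04, 5.43, 5.01 and 5.17 in Z LIRKO and 6.28, 6.48, 6.55, 6.49 and 6.73 in Z (-1.34 ± 0.18, SE, adjusted p = 3.55e-06). Oasl1 had 3.34, 2.92, 3.02 and 3.41 in Z LIRKO and 4.31, 5.16, 4.20, 4.47 and 4.34 in Z (-1.32 ± 0.28, SE, adjusted p = 0.00101). Neither gene showed overlap between the groups. Bst2 fell by 0.77 (adjusted p = 1.17e-04) and B2m fell by 0.54 (adjusted p = 0.0139), while Oasl2 (0.78, adjusted p = 0.021), Ddx58 (0.42, adjusted p = 0.0411) and Parp14 (0.38, adjusted p = 0.0455) were higher. Ddx58 and Parp14 lost the call in 9 and 8 of 16 alternatives. Beside these, 8 of 9 Kupffer cell and macrophage markers, 3 of 4 B cell markers and all 3 markers of sinusoidal endothelium were higher. The Kupffer cell and macrophage sum was 862 to 1000.0 CPM in Z LIRKO and 479 to 676 in Z, and the T and NK sum 7.0 to 10.6 CPM in Z LIRKO and 3.38 to 6.15 in Z. Ptprc was higher by 0.95 (adjusted p = 7.60e-04), Clec4f by 0.58 (adjusted p = 3.29e-04) and Cd3e by 1.46 (adjusted p = 0.0184). Their part in the result was not tested.

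In ZZ LIRKO against ZZ 2 members were higher and 7 lower (5.41% and 18.9%), against 13.2% and 13.6% of all genes. By median, the change was -0.03 for the members, -0.29 for the class I genes and -0.01 for all genes. Oasl1 had a lowest value of 3.07, a median of 3.49 and a highest value of 3.78 log2 CPM in ZZ LIRKO and 4.43, 4.77 and 4.27 in ZZ (-1.05 ± 0.29, SE, adjusted p = 0.0138). Ifi27 had a lowest value of 5.33, a median of 5.90 and a highest value of 6.2 in ZZ LIRKO and 6.56, 6.65 and 7.12 in ZZ (-0.90 ± 0.18, SE, adjusted p = 0.00175). For both genes all ZZ LIRKO mice were below all ZZ mice, as Z LIRKO mice were below Z mice. Samd9l had a lowest value of 3.35, a median of 3.80 and a highest value of 3.88 in ZZ LIRKO and 4.57, 4.53 and 4.51 in ZZ. Every ZZ LIRKO mouse was below the 3 ZZ mice (-0.85 ± 0.18, SE, adjusted p = 0.00257). Bst2 had a lowest value of 6.54, a median of 7.0 and a highest value of 7.35 in ZZ LIRKO and 7.52, 7.88 and 7.83 in ZZ, without overlap (-0.73 ± 0.14, SE, adjusted p = 0.00104). Parp14, a mono-ADP-ribosyltransferase, had a lowest value of 5.60, a median of 5.71 and a highest value of 5.87 in ZZ LIRKO and 5.35, 5.27 and 5.40 in ZZ (0.41 ± 0.10, SE, adjusted p = 0.00601). Irf9 had a lowest value of 5.23, a median of 5.33 and a highest value of 5.55 in ZZ LIRKO and 4.93, 5.03 and 5.09 in ZZ (0.32 ± 0.11, SE, adjusted p = 0.0379), a call lost in 6 of 17 alternatives. In neither gene did the groups overlap. Clec4f was higher by 0.73 (adjusted p = 7.63e-04) and Cd3e by 1.13 (adjusted p = 0.0292), as were 5 of 9 Kupffer cell and macrophage markers, all 3 sinusoidal endothelial markers and 2 of 4 hepatocyte markers, while 1 of 2 monocyte markers and 1 hepatocyte marker were lower. The part of these cells was not tested. Oas1a had a lowest value of 2.47, a median of 2.93 and a highest value of 3.11 in ZZ LIRKO and 2.77, 2.99 and 3.22 in ZZ. Oasl2 had a lowest value of 2.99, a median of 3.46 and a highest value of 4.12 in ZZ LIRKO and 3.55, 3.46 and 3.60 in ZZ, and both genes missed the threshold. The count fell to 5 without ZZ mouse 1809, where Oasl1 (-0.91) and Tap2 (-0.40) were lost.

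The interaction, which is the difference between the LIRKO change on the PiZ background and that without PiZ, was tested in each table. In the homozygous table, 3 members were higher and 0 lower (8.11%), against 3.03% and 4.72% of all genes. Tap1 changed by -0.13 in ZZ LIRKO against ZZ and by -1.14 in LIRKO against WT, a difference of 1.0 ± 0.22 log2 units (SE, adjusted p = 0.0134). Stat2 changed by 0.12 in ZZ LIRKO against ZZ and by -0.73 in LIRKO against WT, a difference of 0.85 ± 0.17 log2 units (SE, adjusted p = 0.00782). Irf9, the partner of Stat2, changed by 0.32 in ZZ LIRKO against ZZ and by -0.27 in LIRKO against WT (0.59 ± 0.16, SE, adjusted p = 0.0373). The calls of Stat2 and Tap1 were lost in 1 of 25 alternatives, without the libraries with Prss2 (0.76 for Stat2 and 0.89 for Tap1), and that of Irf9 in 9. With those libraries left out 0 members were higher and Usp18 was lower, and without WT mouse 1601 2 members were higher and 2 lower. In the hemizygous table, 0 members passed in limma, against 0.0588% higher and 0.14% lower among all genes, 5 members had an unadjusted p under 0.05, a fit with voom weights called 0, and a fit of the 4 groups alone called 1. There Stat2 differed by 0.59 (adjusted p = 0.389) and Tap1 by 0.91 (adjusted p = 0.35).

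Loss of FOXO1 together with the insulin receptor was compared with Zstar, which carries the same cohort label. In Z LIRKO F1KO against Zstar 5 members were higher and 1 lower (13.5% and 2.70%), against 12.4% and 11.1% of all genes. Members had a median change of 0.08, against -0.01 for all genes. Without the libraries with Prss2 4 members were higher and 3 lower, and without Zstar mouse 120 4 and 4. Gbp2 had 2.38, 2.80, 2.79, 3.99 and 3.03 log2 CPM in Z LIRKO F1KO and 1.48, 1.44, 2.58, 1.76 and 2.39 in Zstar, with mouse 206 highest and overlap between the groups (1.07 ± 0.25, SE, adjusted p = 0.00287). Oas2 had 3.25, 3.06, 3.09, 3.70 and 3.60 in Z LIRKO F1KO and 2.55, 2.17, 2.62, 1.97 and 2.09 in Zstar, without overlap (1.06 ± 0.20, SE, adjusted p = 4.44e-04). Ifit2 had 2.54, 2.92, 2.43, 3.17 and 3.03 in Z LIRKO F1KO and 1.98, 1.41, 2.74, 1.4 and 1.77 in Zstar. Zstar mouse 249 stood apart from its group and overlapped the other (0.96 ± 0.23, SE, adjusted p = 0.00368). Oas1a was higher by 0.77 (adjusted p = 0.0433), a call lost in 8 of 17 alternatives and at 0.56 without mouse 206. Class II genes, 7 of 8, and 15 of 45 other type I targets were higher and 4 of these targets lower, led by Slfn8 (1.55, adjusted p = 2.96e-05) and Ifi204 (1.35, adjusted p = 3.14e-05). All 9 Kupffer cell and macrophage markers were higher too, with a sum of 778 to 1472 CPM in Z LIRKO F1KO and 402 to 485 in Zstar, and the dendritic cell sum was 6.79 to 26.2 CPM in Z LIRKO F1KO and 2.76 to 6.45 in Zstar. Ptprc was higher by 1.69 (adjusted p = 1.54e-06) and Clec4f by 0.91 (adjusted p = 2.00e-06), and Cd3e changed by 0.88 (adjusted p = 0.15). Their part was not tested.

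Against Z LIRKO, which carries another cohort label, Z LIRKO F1KO had 5 members higher and 1 lower (13.5% and 2.70%), against 11.5% and 11.1% of all genes. By median, the change was 0.02 for the members, 0.39 for the class I genes and 0.01 for all genes. Without the libraries with Prss2 the balance turned, with 2 members higher, Bst2 and Ifi27, and 5 lower. Ifi27 had 6.21, 5.85, 6.41, 6.47 and 6.51 log2 CPM in Z LIRKO F1KO and 5.04, 5.43, 5.01 and 5.17 in Z LIRKO. All mice with the FOXO1 knockout were higher (1.13 ± 0.18, SE, adjusted p = 5.01e-05). Bst2 had 7.37, 7.48, 7.34, 7.71 and 7.50 in Z LIRKO F1KO and 6.83, 7.19, 6.58 and 6.60 in Z LIRKO, also without overlap (0.68 ± 0.13, SE, adjusted p = 6.47e-04). Ddx58 had 5.01, 4.82, 5.23, 5.08 and 4.87 in Z LIRKO F1KO and 5.65, 5.23, 5.60 and 5.77 in Z LIRKO (-0.56 ± 0.16, SE, adjusted p = 0.0127). Its groups overlapped, and it was not past the threshold without Z LIRKO mouse 1450 (-0.49). The change of Z LIRKO F1KO against Zstar, with the insulin receptor and FOXO1 lost, was then set against that of Z LIRKO against Z. In the latter the insulin receptor alone is lost, and each change lies within 1 cohort label. Only Ifi27 passed in this difference of differences and 0 members were lower (2.70% higher), against 3.27% and 3.35% of all genes. Ifi27 changed by -0.43 in Z LIRKO F1KO against Zstar and by -1.34 in Z LIRKO against Z, a difference of 0.92 ± 0.24 log2 units (SE, adjusted p = 0.0229). Without Z LIRKO mouse 1428 it stood at 0.87 and did not pass. The count was 2 without Z mouse 1411 or Zstar mouse 251 or 285, and 3 without Z LIRKO mouse 1427.

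**Figure D4:**
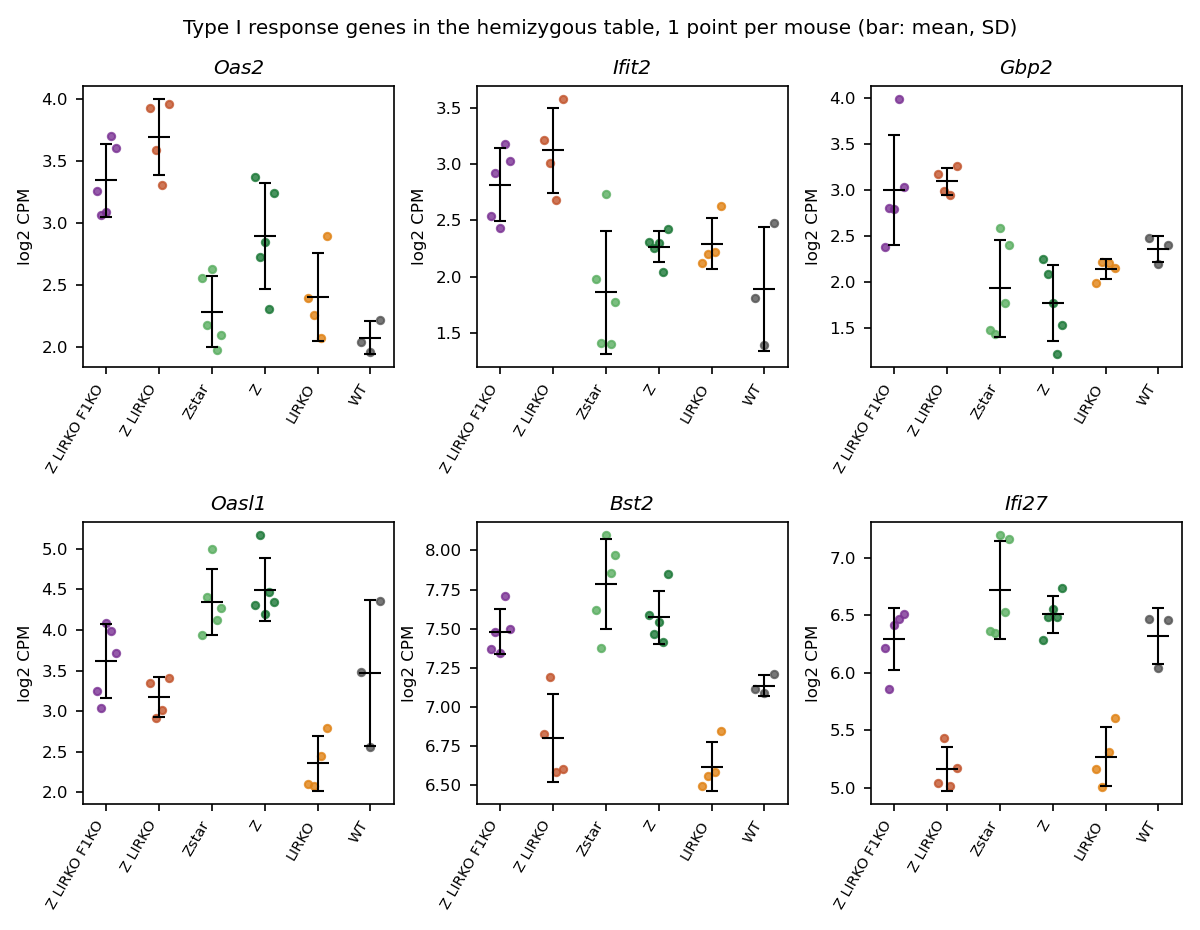
Level in log2 CPM of 6 type I response genes in each mouse of the hemizygous table (points), with group mean and SD (bars), for Z LIRKO F1KO, Z LIRKO, Zstar, Z, LIRKO and WT (n = 5, 4, 5, 5, 4 and 3). Ifi27 is lowest in Z LIRKO and LIRKO, with group means of 5.16 and 5.27, against 6.29 in Z LIRKO F1KO and 6.51 in Z.

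The class I genes differed in the size and, in some comparisons, the direction of their changes. By estimate, all 6 were lower in LIRKO against WT of both tables and in Z LIRKO against Z. All 6 were higher in Zstar against WT, Z LIRKO F1KO against Z LIRKO and ZZ LIRKO against LIRKO. Directions were mixed in the other pairwise comparisons. B2m had 10.06, 10.09, 10.09 and 10.12 log2 CPM in LIRKO and 10.77, 10.73 and 10.86 in WT of the homozygous table, without overlap (-0.70 ± 0.12, SE, adjusted p = 5.53e-04). In the hemizygous table the same mice had 10.42, 10.64, 10.19 and 10.34 in LIRKO and 10.71, 10.68 and 10.94 in WT, and the change (-0.38, adjusted p = 0.146) did not pass. B2m had a lowest value of 9.95, a median of 10.21 and a highest value of 10.53 in ZZ LIRKO and 10.81, 10.97 and 10.95 in ZZ, without overlap (-0.70 ± 0.11, SE, adjusted p = 2.23e-04). Z LIRKO mice had 10.15, 10.21, 10.06 and 10.42 and Z mice 10.73, 10.71, 10.77, 10.71 and 10.83, also without overlap. Z LIRKO F1KO mice had 10.38, 10.34, 10.68, 10.92 and 11.04 and Zstar mice 11.13, 11.50, 11.74, 10.73 and 11.16, with overlap, a difference of -0.58 ± 0.15 log2 units (SE, adjusted p = 0.00825).

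The heavy chain genes followed B2m in some comparisons and not in others. H2-D1 had 9.58, 9.58, 9.92, 10.09 and 9.71 log2 CPM in Z LIRKO F1KO and 8.83, 9.55, 9.60, 9.0 and 9.44 in Zstar, with overlap (0.49 ± 0.14, SE, adjusted p = 0.0105), and it was higher in ZZ LIRKO than in LIRKO by 0.42 (adjusted p = 0.00604). In LIRKO against WT it changed by -0.21 (adjusted p = 0.387) in the hemizygous and -0.17 (adjusted p = 0.247) in the homozygous table. In ZZ LIRKO against ZZ it changed by 0.02 (adjusted p = 0.875). H2-K1 had 9.34, 9.27, 9.60, 9.79 and 9.54 in Z LIRKO F1KO and 8.98, 9.13, 8.95 and 9.06 in Z LIRKO, without overlap (0.48 ± 0.16, SE, adjusted p = 0.0341), a call lost in 7 of 16 alternatives. In that comparison H2-D1 (0.53, adjusted p = 0.00933) and B2m (0.46, adjusted p = 0.046) were higher too, B2m not in 9 of 16 alternatives. H2-K1 was higher in ZZ LIRKO than in LIRKO by 0.30 (adjusted p = 0.0353), lost in 9 of 18 alternatives, and did not pass in the other comparisons.

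Tap1 had 3.55, 3.39, 3.16 and 3.62 log2 CPM in LIRKO and 4.22, 4.63 and 4.74 in WT of the hemizygous table, without overlap (-1.10 ± 0.25, SE, adjusted p = 0.00199, or 2.14-fold lower), and 3.75, 3.23, 3.32 and 3.81 in LIRKO and 4.5, 4.60 and 4.89 in WT of the homozygous table (-1.14 ± 0.16, SE, adjusted p = 1.27e-04). ZZ LIRKO mice had a lowest value of 4.01, a median of 4.23 and a highest value of 4.67, which is above all LIRKO mice (0.78 ± 0.13, SE, adjusted p = 0.00199). In Z LIRKO against Z its change was -0.19 (adjusted p = 0.521). Tap2 followed Tap1 in LIRKO against WT with -0.57 (adjusted p = 0.0277) in the hemizygous and -0.60 (adjusted p = 0.0122) in the homozygous table. ZZ LIRKO livers also had less Tap2 than ZZ livers (-0.58, adjusted p = 0.00793). Tapbp was higher in ZZ than in WT (0.54, adjusted p = 0.0292) and lower in ZZ LIRKO, compared with ZZ (-0.44, adjusted p = 0.0367, lost in 7 of 17 alternatives). Among the other class I processing genes, H2-Q10 (-0.96, adjusted p = 1.01e-04), Cd1d1 (-1.13, adjusted p = 8.04e-05) and the immunoproteasome gene Psmb9 (-1.01, adjusted p = 0.0205) were lower in LIRKO than in WT of the hemizygous table, with 1 of 22 higher and 4 lower.

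**Figure D5:**
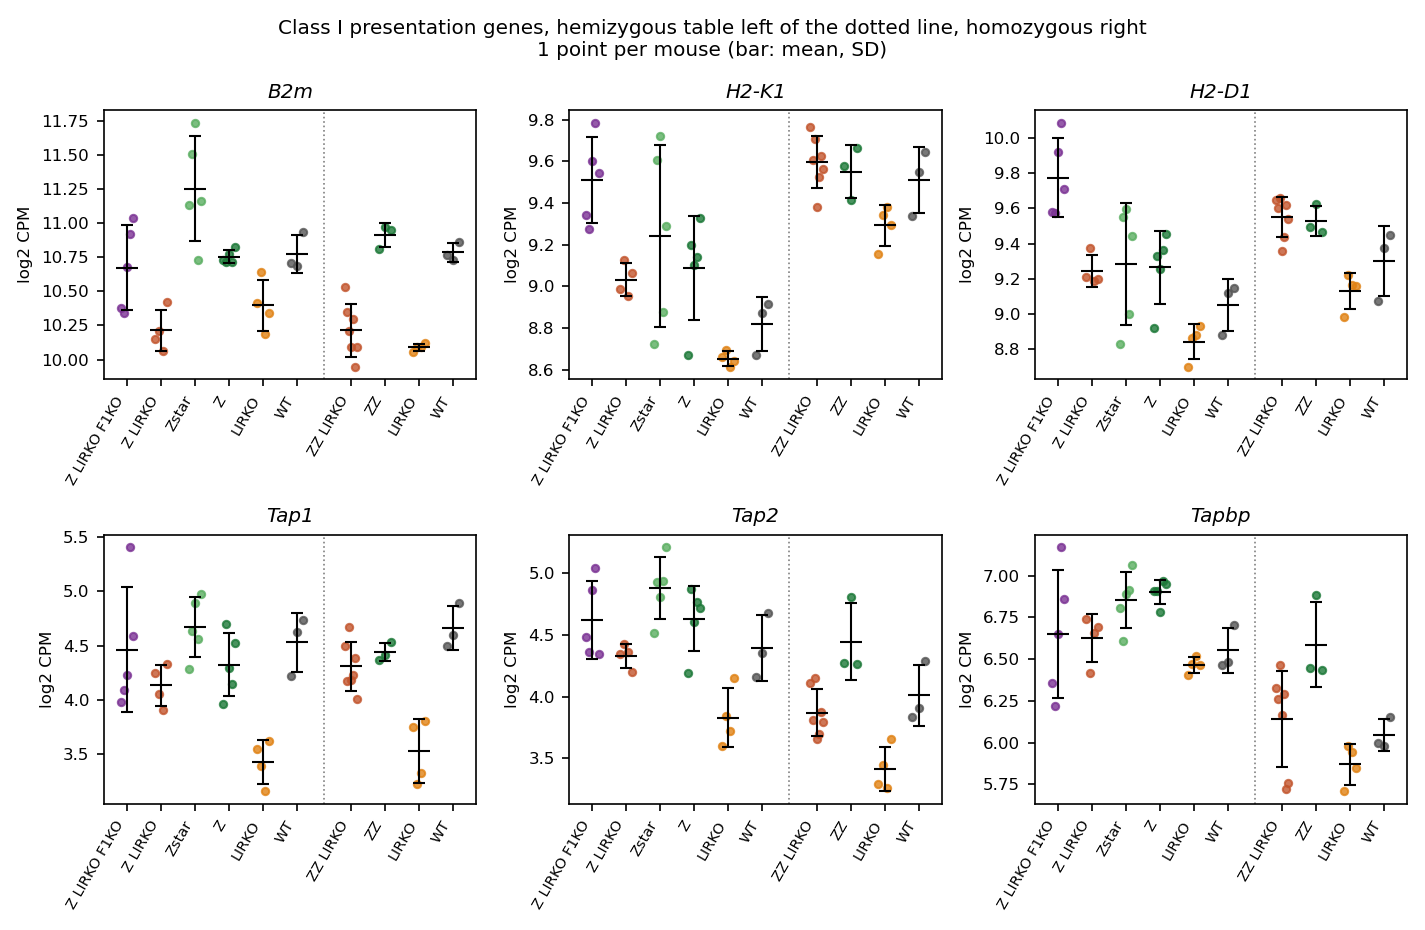
Level in log2 CPM of the 6 class I presentation genes in each mouse (points), with group mean and SD (bars), for the hemizygous table left of the dotted line and the homozygous table right of it. B2m is lower in Z LIRKO than in Z and in ZZ LIRKO than in ZZ, while H2-K1 and H2-D1 show no such step, and Tap1 has its lowest mean in LIRKO in both tables.

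Other H2 genes split the Z LIRKO F1KO group by mouse. H2-Eb1, a class II gene, had 1.42, 1.0 and 1.35 log2 CPM in mice 169, 170 and 201, and 6.38 and 5.38 in mice 206 and 207, against 5.43, 5.61, 5.30 and 5.26 in the Z LIRKO mice and 4.25, 3.0, 3.59, 5.22 and 4.75 in the Zstar mice. H2-Q6, a class I gene, had 2.89, 3.17 and 3.38 in mice 169, 170 and 201, and 5.84 and 5.45 in mice 206 and 207, against 6.12, 6.39, 6.22 and 6.2 in Z LIRKO. The same 5 mice, in that order, had 9.34, 9.27, 9.60, 9.79 and 9.54 for H2-K1 and 9.58, 9.58, 9.92, 10.09 and 9.71 for H2-D1, so the heavy chain members did not show this split. Gbp11, a guanylate-binding protein outside the members, had 6.11, 6.01, 5.60, 6.09 and 7.06 in Zstar and 2.10, 1.59, 1.58, 2.54 and 1.82 in Z (4.25 ± 0.40, SE, adjusted p = 1.60e-07). These genes were named after their values were seen. The 5 Z LIRKO F1KO mice share 1 genotype label and 1 cohort label, which do not give their genotype elsewhere in the genome, and what divides them was not tested. Between Zstar and Z, whose cohort labels differ, genotype and cohort label cannot be told apart.

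The levels of the transcription factors differed in how they followed genotype (mean ± SD, n as given in the opening). Stat2 averaged 5.91 ± 0.25 in Z LIRKO F1KO, 5.71 ± 0.31 in Z LIRKO, 5.99 ± 0.13 in Zstar, 5.80 ± 0.31 in Z, 5.72 ± 0.25 in LIRKO and 6.41 ± 0.08 in WT of the hemizygous table. Its means in the homozygous table were 6.2 ± 0.15 in ZZ LIRKO, 6.08 ± 0.06 in ZZ, 5.85 ± 0.27 in LIRKO and 6.58 ± 0.08 in WT. WT stood highest in both tables. Irf7 averaged 5.62 ± 0.43 in Z LIRKO F1KO, 5.46 ± 0.11 in Z LIRKO, 5.74 ± 0.47 in Zstar, 5.92 ± 0.17 in Z, 4.63 ± 0.19 in LIRKO and 4.88 ± 0.67 in WT of the hemizygous table. The homozygous table had means of 5.38 ± 0.43 in ZZ LIRKO, 5.69 ± 0.22 in ZZ, 4.32 ± 0.23 in LIRKO and 4.56 ± 0.80 in WT. Every PiZ group was above LIRKO and WT by its mean, and the WT mice had the widest spread. Irf9 averaged 5.24 ± 0.13 in Z LIRKO F1KO, 5.37 ± 0.19 in Z LIRKO, 5.25 ± 0.20 in Zstar, 5.37 ± 0.19 in Z, 5.16 ± 0.21 in LIRKO and 5.43 ± 0.30 in WT of the hemizygous table. For the homozygous table the means were 5.34 ± 0.11 in ZZ LIRKO, 5.02 ± 0.08 in ZZ, 5.05 ± 0.19 in LIRKO and 5.32 ± 0.26 in WT. The group means of Irf9 were closer together than those of Stat2 or Irf7 in both tables.

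Of the downstream targets, Isg15 averaged 3.54 ± 0.64 in Z LIRKO F1KO, 3.03 ± 0.42 in Z LIRKO, 3.53 ± 0.72 in Zstar, 3.76 ± 0.33 in Z, 2.75 ± 0.44 in LIRKO and 3.42 ± 0.52 in WT of the hemizygous table. Its means in the homozygous table were 3.71 ± 0.52 in ZZ LIRKO, 3.98 ± 0.48 in ZZ, 2.88 ± 0.53 in LIRKO and 3.5 ± 0.66 in WT. Isg15, the ubiquitin-like modifier, passed in no comparison in the fit of all groups, and LIRKO was the lowest group in both tables. Ifit1 averaged 2.70 ± 0.25 in Z LIRKO F1KO, 2.56 ± 0.53 in Z LIRKO, 2.96 ± 0.77 in Zstar, 3.16 ± 0.49 in Z, 2.21 ± 0.59 in LIRKO and 3.12 ± 0.97 in WT of the hemizygous table. The homozygous table had means of 3.01 ± 0.41 in ZZ LIRKO, 3.04 ± 0.22 in ZZ, 1.91 ± 0.69 in LIRKO and 3.05 ± 0.97 in WT. LIRKO was again lowest, and WT had the widest spread in both tables. Cxcl10 averaged 2.28 ± 0.97 in Z LIRKO F1KO, 2.16 ± 0.44 in Z LIRKO, 1.43 ± 0.96 in Zstar, 1.58 ± 0.75 in Z, 1.42 ± 0.29 in LIRKO and 1.58 ± 0.28 in WT of the hemizygous table. For the homozygous table the means were 2.61 ± 1.17 in ZZ LIRKO, 2.66 ± 0.31 in ZZ, 1.36 ± 0.12 in LIRKO and 1.53 ± 0.19 in WT. Its mice were spread most widely in Z LIRKO F1KO, Zstar and ZZ LIRKO.

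Among the class I genes, B2m averaged 10.67 ± 0.31 in Z LIRKO F1KO, 10.21 ± 0.15 in Z LIRKO, 11.25 ± 0.39 in Zstar, 10.75 ± 0.05 in Z, 10.40 ± 0.19 in LIRKO and 10.78 ± 0.14 in WT of the hemizygous table. Its means in the homozygous table were 10.22 ± 0.19 in ZZ LIRKO, 10.91 ± 0.09 in ZZ, 10.09 ± 0.03 in LIRKO and 10.78 ± 0.07 in WT. Zstar had the highest and Z LIRKO the lowest mean of the hemizygous table, and LIRKO the lowest of the homozygous table. H2-K1 averaged 9.51 ± 0.21 in Z LIRKO F1KO, 9.03 ± 0.08 in Z LIRKO, 9.24 ± 0.44 in Zstar, 9.09 ± 0.25 in Z, 8.65 ± 0.03 in LIRKO and 8.82 ± 0.13 in WT of the hemizygous table. The homozygous table had means of 9.60 ± 0.13 in ZZ LIRKO, 9.55 ± 0.13 in ZZ, 9.29 ± 0.10 in LIRKO and 9.51 ± 0.16 in WT. LIRKO had the lowest mean in both tables. H2-D1 averaged 9.77 ± 0.22 in Z LIRKO F1KO, 9.24 ± 0.09 in Z LIRKO, 9.28 ± 0.35 in Zstar, 9.27 ± 0.21 in Z, 8.84 ± 0.10 in LIRKO and 9.05 ± 0.15 in WT of the hemizygous table. For the homozygous table the means were 9.55 ± 0.11 in ZZ LIRKO, 9.53 ± 0.08 in ZZ, 9.13 ± 0.10 in LIRKO and 9.30 ± 0.20 in WT. LIRKO was again lowest in both, and Z LIRKO F1KO was the highest hemizygous group for both heavy chains. Tap1 averaged 4.46 ± 0.58 in Z LIRKO F1KO, 4.13 ± 0.19 in Z LIRKO, 4.67 ± 0.28 in Zstar, 4.33 ± 0.29 in Z, 3.43 ± 0.20 in LIRKO and 4.53 ± 0.27 in WT of the hemizygous table. Its means in the homozygous table were 4.31 ± 0.22 in ZZ LIRKO, 4.44 ± 0.09 in ZZ, 3.53 ± 0.29 in LIRKO and 4.66 ± 0.20 in WT. The LIRKO means of Tap1 were also the lowest of each table.

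Of the 37 members, 31 (83.8%) were called in at least 1 of the 15 comparisons, against 77.1% of the 13044 genes tested in both tables, so most genes were called somewhere. The other 6 members were called in none: Cxcl10, Eif2ak2, Gbp7, Ifit3, Isg15 and Rtp4. Ifi27 was called in 8 of the 15, and Oas2, Oasl1 and Bst2 in 7 each, counting comparisons that share groups. Eif2ak2, the kinase PKR that halts translation, changed by -0.21 to 0.21 over all comparisons. Ifit3 ranged from -0.57 to 0.74, Rtp4, a chaperone of receptor transport, from -0.42 to 0.53, and Gbp7 from -0.34 to 0.82, and their lowest adjusted p values were 0.0809, 0.113 and 0.0654. Ifit3 had a lowest value of 3.37, a median of 3.89 and a highest value of 4.48 in ZZ LIRKO and 3.11, 2.84, 2.83 and 3.78 in LIRKO of the homozygous table, with overlap at mouse 1600.

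Within several groups, 1 mouse was highest or lowest for many type I genes. Ranks were taken over these 31 genes alone, so whether other genes of the same libraries were shifted too was not tested. WT mouse 1601 was the highest of the 3 WT mice for 26 of the 31 type I genes in the hemizygous table and for 27 in the homozygous table, with a median deviation from the group mean of 0.40 and 0.37 log2 units. LIRKO mouse 1600 was the highest of its 4 for 24 and 25 genes, with a median deviation of 0.28 and 0.29. In both cases the 2 tables hold 2 libraries of 1 animal. Zstar mouse 249 was highest for 22 genes (median deviation 0.56), Z LIRKO F1KO mouse 206 for 19 (0.36) and ZZ LIRKO mouse 1783 for 24 (0.34), while ZZ LIRKO mouse 1876 was lowest for 14 (-0.36). Mice 1601, 249 and 206 were also among the libraries with Prss2 above 0 log2 CPM, at 3.42, 0.93 and 7.66. Mouse 1600 stood at -5.29 in the hemizygous table, and 0 of 7 ZZ LIRKO libraries, mouse 1783 included, were above 0. WT mouse 1586 was above 0 as well, yet it was lowest of its group for 18 genes in the hemizygous table (median deviation -0.22). The part of pancreatic RNA was not tested. Isg15 had 2.94, 3.34 and 3.98 in WT mice 1564, 1586 and 1601 of the hemizygous table and 2.98, 3.28 and 4.24 in the homozygous table. A setting chosen after seeing the data left out mice 1600 and 1601, each the highest of its group for most type I genes. Without them LIRKO against WT called 7 hemizygous-table members and 10 homozygous-table members. ZZ against WT called 19, against 13 with all mice, and ZZ LIRKO against LIRKO called 26, against 22. The share of all genes called in this setting was not computed.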

How the data were processed

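Total RNA of 36 mouse livers was sequenced as 43 libraries in 10 groups, of which 7 mice appear in both of the deposited tables. The authors' deposited tables hold log2 CPM per gene. Per the submitters' processing notes, STAR 2.0.4b, Subread and featureCounts 1.4.5 were used with GRCm38. Neither step order nor strand rule nor annotation is stated in what was used here, so reads of antisense, overlapping or near-identical genes cannot be told apart. Tested on the tables, the deposited log2 values equal log2 of reads plus 0.5 per 1000000 of a scaled library size, and they gave whole reads for 100% of values up to 10000 reads, within 0.01 reads. Libraries came to 13.8 to 23.9 M reads (hemizygous) and 38.2 to 90.1 M (homozygous). Repeated lines (115 and 55) were dropped, and 1 column matched no label and was not used.

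The filter kept genes at 0 log2 CPM or more in at least 3 libraries, which are 13596 hemizygous-table and 13690 homozygous-table genes. The test was limma 3.58.1 in R 4.3.3, fitted to every group of a table at once with a mean for each, a mean-dependent prior on the variance, two-sided p and Benjamini-Hochberg adjustment over all genes tested, called at 0.05. The groups compared hold different mice, the labels give each sample as a mouse of its own, and no covariate was used. On simulated data for ZZ against WT over 13690 genes, 64% of genes changed 2-fold and 88% of those changed 4-fold were recovered, and 6.29% of the calls were wrong. The simulation changed far fewer genes than were called in ZZ against WT, and its noise was independent between genes and mice. These rates need not hold for the data.

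The members, the other gene lists, the markers and the alternatives were chosen with earlier results of these data known. Up to 4 called members per direction with the largest change, no more than 1 per role where possible, are given per mouse. Stat2, Irf7, Irf9, Isg15, Ifit1, Cxcl10, B2m, H2-K1, H2-D1 and Tap1 are given in every group, called or not. Of each other list, up to 3 genes with the smallest adjusted p are named. The genes shown in the figures and further members given per mouse were chosen after their values were seen. Marker sums add CPM. The alternatives were no filter on low values, log2(CPM + 1), only the compared groups, equal library medians, voom weights on the recovered reads, no libraries with Prss2 above 0 log2 CPM, the clock value as a covariate and each library left out. Promoters came from RefSeq (GRCm38.p6), where 29 of 37 members matched by symbol.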

Additional observations from a re-analysis of the deposited data

Results flagged for a closer look

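Of 259 pairs of a member and a group of 4 to 10 mice, 16 held a mouse that stood apart from the rest of its group by Dixon's criterion (6.18%), where chance marks about 1 in 20. LIRKO mouse 1600 accounted for 9 of them. In the hemizygous table it stood high for Dhx58 (3.61 log2 CPM) and Isg15 (3.41). In the homozygous table the same animal stood high for Dhx58 (3.19), Gbp7 (4.36), Ifih1 (4.81), Ifit1 (2.94), Irf9 (5.34), Isg15 (3.67) and Xaf1 (3.11). Z mouse 1411 stood high for Ddx58 (5.71), Oasl1 (5.16) and Parp14 (5.91). Zstar mouse 249 stood high for Oasl2 (3.43), Z LIRKO F1KO mouse 206 for Gbp3 (4.21) and Z LIRKO mouse 1427 for H2-D1 (9.38), while Z LIRKO mouse 1428 stood low for Xaf1 (2.54).

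In 4 members the change differed between 2 comparisons by a test of the difference itself in limma. Ifi27 differed by 0.92 log2 units between Z LIRKO F1KO against Zstar, the joint loss of the insulin receptor and FOXO1, and Z LIRKO against Z, the loss of the receptor alone. For the LIRKO effect with and without the homozygous transgene, Tap1 differed by 1.0, Stat2 by 0.85 and Irf9 by 0.59 between ZZ LIRKO against ZZ and LIRKO against WT. The SE and adjusted p of each stand with these comparisons above. Ifi27 alone is 2.70% of the 37 members, below the 3.27% of all genes called higher in that test, where 3.35% were lower. The other 3 are 8.11% of the members, against 3.03% of all genes higher and 4.72% lower.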

How the results depend on the processing

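Of 108 calls of a member in a comparison, 39 were lost under no alternative and 0 changed direction. In all, 336 of 1780 recomputations of these calls no longer passed the threshold. The share of all genes called was computed only for the fit of all groups with all libraries. Counts of members under an alternative, here and above, therefore have no such share beside them. No filter, log2(CPM + 1), equal library medians and voom weights moved no count of called members by over 1.5 times in the 15 comparisons. With only the compared groups in the fit, the count was 7 in Z LIRKO against LIRKO, 1 in Zstar against Z, 1 in the hemizygous interaction and 8 in LIRKO against WT of the homozygous table. Without the libraries with Prss2, whose removal touches 14 comparisons, it was 3 in Z against WT, 1 in Zstar against WT, 4 in LIRKO against WT, 7 in Z LIRKO against LIRKO, 0 in the F1KO difference of differences, 8 in ZZ against WT, 7 in LIRKO against WT of the homozygous table and 1 in the homozygous interaction, where 0 members were higher and Usp18 lower, against 3 higher and 0 lower with all libraries. With the clock value as a covariate it was 0 in Z against WT, 1 in Zstar against WT and 4 in LIRKO against WT. Without mice 1600 and 1601, chosen after seeing the data, it was 5 in Zstar against WT. The cause was not tested, beyond the smaller number of libraries that some settings leave. In every comparison that involves WT, the setting without the Prss2 libraries left WT mouse 1564 alone in its group. A lower count there does not show that the changes were gone.

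Leaving out 1 library at a time, the count ran from 2 to 7 in Z against WT, 2 to 6 in Zstar against WT, 5 to 10 in LIRKO against WT, 7 to 11 in Z LIRKO against Z, 1 to 1 in Z LIRKO against LIRKO, 5 to 9 in Z LIRKO F1KO against Zstar, 4 to 6 in Z LIRKO F1KO against Z LIRKO, 1 to 5 in Zstar against Z, 0 to 3 in the F1KO difference of differences and 0 to 0 in the hemizygous interaction. It ran from 7 to 18 in ZZ against WT, 6 to 14 in LIRKO against WT of the homozygous table, 5 to 9 in ZZ LIRKO against ZZ, 10 to 24 in ZZ LIRKO against LIRKO and 2 to 4 in the homozygous interaction. No paired analysis was possible because the groups compared share no mouse numbers. Depth limits the members with few reads, whose lowest numbers were 17 and 77.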

Other observations

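In ZZ against WT, Ifnlr1, the receptor of type III interferon, was higher by 3.02 ± 0.46 log2 units (SE, adjusted p = 1.74e-04) and in ZZ LIRKO against ZZ it changed by -2.22 ± 0.39 log2 units (SE, adjusted p = 6.58e-04). Of 17 nucleic acid sensing genes, 6 were higher and 2 lower in ZZ against WT, where 16.1% of all genes were higher and 14.2% lower, and 6 were higher and 0 lower in ZZ LIRKO against LIRKO, where the shares of all genes were 6.83% and 3.73%. In Z LIRKO against Z, 6 of the 17 were higher and 0 lower, and 1 of 22 other class I processing genes was higher and 7 were lower, against 16.7% higher and 17.7% lower among all genes.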
